A study of Homo sapiens with 4 samples.

Results

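Receptor tyrosine kinases are cell-surface receptors with an intracellular domain that phosphorylates tyrosines when a ligand binds. The 9 receptor genes described here, PDGFRA, PDGFRB, CSF1R, KIT, MET, MST1R, NTRK2, EPHB1 and DDR2, were listed because they have been reported in Hodgkin cells or encode receptors acted on by the tyrosine phosphatase PTPN1, a rule that itself uses no measured value. They make up 9 of the 19775 genes measured and are read by 25 of the 54675 probe sets, where a probe set is a group of short oligonucleotides against 1 transcript. KM-H2, a cell line from Hodgkin lymphoma, was profiled on 4 Affymetrix arrays, 2 of cells carrying a small interfering RNA against PTPN1 (knockdown) and 2 of cells given a non-silencing control. No other treatment, allele or time is given in the labels, and every array comes from the same cell line. The series describes the arrays within a group as technical replicates, so SDs, SEs and p-values here measure spread between arrays and not between cultures.

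A receptor of this kind dimerises on its ligand, and the phosphotyrosines on its tail recruit adaptors that lead to the Ras, phosphoinositide and STAT pathways. PTPN1 removes phosphates from several such receptors, so it acts on receptor protein and not directly on receptor mRNA, which is what the arrays read. Hodgkin and Reed-Sternberg cells, the tumour cells of this lymphoma, are of B-cell origin and are known for aberrant expression of several of these receptors.

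Values are log2 expression after RMA, a method that corrects background, equalises the distributions of the arrays and summarises each probe set. The array medians were 5.11 and 5.10 in the knockdown arrays and 5.12 and 5.12 in the non-silencing arrays. With no detection call in the values, a probe set is described below as above or below the median of its array. Probe sets differ in brightness for the same amount of RNA, so levels are not set against one another between probe sets or genes. The number of arrays limits the precision. PTPN1 itself, the target of the siRNA, read 7.0 and 7.36 in the knockdown arrays, against 8.16 and 8.40 in the non-silencing arrays, at its brightest probe set 202716_at, and 46.8% of the signal remained. This difference of -1.10 (SE 0.18) did not pass (limma adjusted p = 1.0 over all probe sets and 0.769 over genes), and it was -0.30 with the 4 PTPN1 probe sets averaged, since the remaining 3, all dim, differed by 0.0085, -0.065 and -0.033. All 10 measured Hodgkin cell markers lay above the median in both non-silencing arrays, among them TNFRSF8, IRF4 and CCL17, and 3 of 5 measured B cell markers did, among them PAX5. RNA of whole cultures was measured, in which fewer cells of a type and less RNA per cell cannot be told apart.

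Of the 9 receptors, 6 had a probe set above the array median in both non-silencing arrays: PDGFRA, PDGFRB, DDR2, NTRK2, MET and CSF1R. EPHB1, MST1R and KIT had none, and their 5 probe sets lay below the median in all 4 arrays. The share is close to that of all genes, of which 61.9% had their brightest probe set above the median in both non-silencing arrays, so it does not set the receptors apart. By probe set, 12 of 25 lay above the median in both non-silencing arrays and the same number in both knockdown arrays, against 47.8% of all probe sets in the non-silencing arrays. The comparison of knockdown with non-silencing arrays asked whether receptor transcripts differ when PTPN1 is reduced. MET showed the tightest difference, with 2 of its 4 probe sets higher in both knockdown arrays, while CSF1R, and MST1R below the median, were slightly lower in both. At the brightest probe set the groups of the other 6 receptors overlapped.

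**Figure D1:**
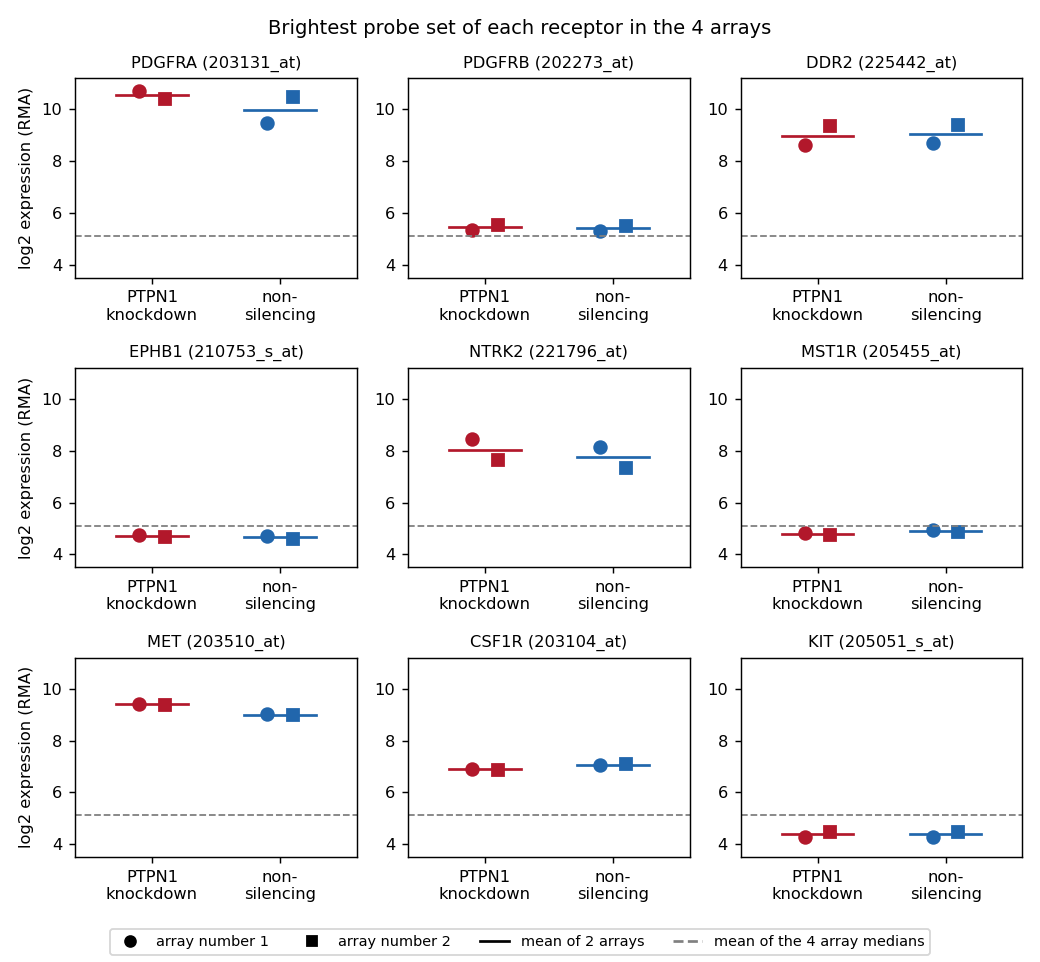
Log2 RMA expression of the brightest probe set of each receptor in the 2 PTPN1 knockdown arrays (red, left) and the 2 non-silencing arrays (blue, right), with circles for arrays numbered 1, squares for arrays numbered 2, solid lines for group means and a dashed line for the mean of the 4 array medians. MET and CSF1R have groups that do not overlap and stand above the dashed line, whereas EPHB1, MST1R and KIT stay below it.

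No receptor probe set passed the test. In limma, fitted over all 54675 probe sets with Benjamini-Hochberg adjustment, 0 of 25 had an adjusted p under 0.05, against 0% of all probe sets. At an unadjusted limma p under 0.05 there were 2 of 25, both of MET, against 2.5% of all probe sets. Both knockdown arrays lay above both non-silencing arrays for 5 receptor probe sets (13.4% of all probe sets) and below them for 4 (15.3% of all probe sets). In either direction this is 9 of 25, beside 28.7% of all probe sets. The median difference, knockdown minus non-silencing, was 0.018 on the log2 scale over the 25 probe sets and -0.0050 over all probe sets, and the median size of a difference was 0.12 over the 25 and 0.10 over all. An exact permutation of 2 against 2 arrays cannot give a two-sided p under 0.333, so no single value could pass such a test.

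MET encodes the receptor of hepatocyte growth factor, which drives growth and motility of epithelial cells. Its brightest probe set, 203510_at, read 9.41 and 9.39 in the knockdown arrays, against 9.01 and 8.99 in the non-silencing arrays. The groups did not overlap, and each pair of arrays was nearly identical. The log2 difference was 0.40 (SE 0.12), or 1.32-fold, with an unadjusted limma p of 0.0219 and an adjusted p of 1.0. Within number 1 and within number 2 it came to 0.40 each time. With any single array left out it lay between 0.38 and 0.41. As the arrays of a group were nearly identical technical replicates, these values follow from the group difference and say nothing about separate cultures.

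A second MET probe set, 213816_s_at, read 5.20 and 4.89 in the knockdown arrays, against 4.43 and 4.21 in the non-silencing arrays. Both knockdown arrays were again the higher pair, but only knockdown array 1 lay above its array median. Its difference of 0.73 (SE 0.17) was 0.77 within number 1 and 0.68 within number 2 (limma adjusted p = 1.0). The other two MET probe sets did not share this direction in both array numbers. Probe set 211599_x_at read 5.98 and 6.0 in the knockdown arrays and 6.16 and 5.86 in the non-silencing arrays, and 213807_x_at read 4.95 and 4.54 in the knockdown arrays and 4.63 and 4.74 in the non-silencing arrays. For both, the groups overlapped. Their group differences were -0.018 and 0.065. The suffix x marks probe sets whose probes may also bind other transcripts. The suffix s, as in 213816_s_at, marks probes that several transcripts may share, so neither pair is free of this limit. Of the 6 measured epithelial markers, EPCAM, KRT19 and CDH1 lay below the median in all 4 arrays and KRT8, KRT18 and CLDN4 above it in all 4, and the list's summed linear signal was 231 to 237 in the knockdown arrays and 243 to 250 in the non-silencing arrays.

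The promoter windows of MET and CSF1R are shown because these are the receptors whose brightest probe set lay above the median and whose groups did not overlap. Sequences are from RefSeq (GRCh38.p14), cover the 250 bases before a transcript start, and read along the gene's own strand, with matches to the GC box GGGCGG on either strand in capitals. MET has 1 annotated start in the table, on the plus strand (chr7:116671946-116672195). CSF1R has 2 on the minus strand, an upstream one (chr5:150113366-150113615) and a downstream one (chr5:150086555-150086804). Which starts KM-H2 cells use was not measured.
MET: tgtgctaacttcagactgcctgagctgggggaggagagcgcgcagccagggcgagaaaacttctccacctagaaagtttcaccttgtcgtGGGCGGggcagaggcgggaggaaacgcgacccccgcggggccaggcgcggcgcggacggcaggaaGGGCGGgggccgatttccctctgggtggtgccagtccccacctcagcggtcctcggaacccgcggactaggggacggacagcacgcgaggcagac
CSF1R upstream start: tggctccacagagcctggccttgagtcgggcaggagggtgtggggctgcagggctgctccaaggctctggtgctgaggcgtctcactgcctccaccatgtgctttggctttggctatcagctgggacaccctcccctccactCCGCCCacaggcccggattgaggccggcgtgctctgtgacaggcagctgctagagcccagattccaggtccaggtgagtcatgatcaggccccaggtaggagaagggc
CSF1R downstream start: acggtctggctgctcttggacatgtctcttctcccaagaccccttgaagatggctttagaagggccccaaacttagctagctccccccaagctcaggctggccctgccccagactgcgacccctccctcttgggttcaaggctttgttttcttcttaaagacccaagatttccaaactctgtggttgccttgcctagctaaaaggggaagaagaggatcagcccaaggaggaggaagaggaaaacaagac

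The MET window held 2 GC boxes, the upstream CSF1R window 1 and the downstream window none. GC boxes occurred in 42.6% of all 35116 promoter windows of this length. The bases G and C made up 68.4% of the MET window, 64.4% of the upstream CSF1R window and 53.2% of the downstream one, against a median of 58% over all windows. On either strand, none of these 3 windows held TATAAA (10.7% of all windows) or the STAT-type motifs TTCNNNGAA (6.57%) and TTCNNNNGAA (5.38%). Over all 9 receptors, which have 16 windows, 9 held a GC box and 2, both of DDR2, held TATAAA. Another DDR2 window held both STAT-type motifs, at sites that did not overlap. A match describes letters in a window and shows no binding.

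CSF1R encodes the receptor of colony-stimulating factor in monocytes and macrophages. In Hodgkin cells its transcripts have been reported to start in an endogenous retroviral repeat, a start that its single probe set cannot separate from the others. Whether that start belongs to either CSF1R window shown above was not determined. Probe set 203104_at read 6.91 and 6.88 in the knockdown arrays, against 7.05 and 7.08 in the non-silencing arrays. The pair of knockdown arrays was lower without overlap, and all 4 values were above the array medians. The difference was -0.17 (SE 0.12; limma adjusted p = 1.0), or 89.0% of the non-silencing signal, and was -0.13 and -0.20 within the array numbers. Of 7 measured macrophage and monocyte markers, CD14 and ITGAM lay above the median in all 4 arrays, and CD163, LYZ, SPI1 and FCGR1A lay below it in all 4. The remaining marker, CSF3R, read 4.89 and 4.90 in the knockdown arrays, against 5.21 and 5.13 in the non-silencing arrays. It was lower without overlap, as CSF1R was, by -0.27. SPI1 was higher without overlap, by 0.066, and CD14 was higher within both numbers, by 0.36 and 0.29. Of the 7 differences 3 were above 0, beside 48.2% of all genes. Groups were apart for 1 higher and 1 lower marker (12.4% and 15% of all genes). The summed linear signal of the 7 was 492 to 570 in the knockdown arrays and 547 to 588 in the non-silencing arrays, and the part of these markers in the CSF1R difference was not tested.

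PDGFRA, a receptor of platelet-derived growth factors best known from mesenchymal cells, had unequal control arrays. Its brightest probe set, 203131_at, read 10.70 and 10.41 in the knockdown arrays, against 9.47 and 10.48 in the non-silencing arrays. Non-silencing array 1 was the low value, and the groups overlapped. The difference of 0.58 (SE 0.35; limma adjusted p = 1.0) was 1.23 within number 1 and -0.074 within number 2, and it was 0.072 without non-silencing array 1.

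A second PDGFRA probe set, 215305_at, read 7.52 and 7.13 in the knockdown arrays, against 6.42 and 7.13 in the non-silencing arrays. The groups did not overlap, but the arrays numbered 2 differed by 0.0034 and the arrays numbered 1 by 1.10, and the group difference of 0.55 (SE 0.28) was 0.20 without non-silencing array 1. Both bright PDGFRA probe sets therefore gave the same picture, a low non-silencing array 1. Probe sets 1554828_at and 211533_at lay below the median in all 4 arrays and differed by -0.013 and -0.12. By root mean square distance between profiles centred over the 4 arrays, the genes nearest to PDGFRA were HECW2 (0.0689) and CNR1 (0.0801). Both were also low in non-silencing array 1, which follows from choosing them by profile and adds no separate evidence.

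PDGFRB, the sister receptor of pericytes and fibroblasts, read 5.35 and 5.54 in the knockdown arrays, against 5.31 and 5.51 in the non-silencing arrays. The groups overlapped, and the values stood 0.19 to 0.44 above the array medians. Its difference was 0.032 (SE 0.15). KIT, the stem cell factor receptor of mast cells and blood progenitors, read 4.29 and 4.45 in the knockdown arrays, against 4.27 and 4.47 in the non-silencing arrays. All 4 KIT values were below the array medians and the groups overlapped, with a difference of 0.0043 (SE 0.15). Among 4 measured mast cell markers, CPA3, HDC and FCER1A were below the median in all 4 arrays and TPSAB1 above it in all 4.

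These 4 receptors belong to 1 structural family, whose kinase domain is split by an insert, and lie in neighbouring pairs. In the GRCh38.p14 gene order, PDGFRA and KIT have 0 protein-coding genes between them on chromosome 4, as do PDGFRB and CSF1R on chromosome 5. KDR, the vascular endothelial growth factor receptor gene next to KIT, was below the median in all 4 arrays (3.90 and 3.56 in the knockdown arrays, against 3.54 and 3.79 in the non-silencing arrays).

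NTRK2, the receptor of brain-derived neurotrophic factor, differed more between the array numbers than between the groups. Probe set 221796_at read 8.45 and 7.64 in the knockdown arrays, against 8.16 and 7.34 in the non-silencing arrays, with the array numbered 1 the higher in each group. The groups overlapped, although knockdown was higher within both numbers, by 0.29 and 0.30. Arrays numbered 2 read 0.81 lower than those numbered 1 among the knockdown arrays and 0.82 lower among the non-silencing arrays.

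Probe set 221795_at of NTRK2 read 7.09 and 5.28 in the knockdown arrays, against 6.73 and 5.18 in the non-silencing arrays. The gap between the numbers, -1.80 and -1.55, was again wider than the group difference of 0.23 (SE 0.74). The remaining 4 NTRK2 probe sets lay below the median in both non-silencing arrays, and their differences ran from -0.16 to 0.33. Of these, 229463_at was higher in both knockdown arrays (4.76 and 4.53, against 4.31 and 4.31 in the non-silencing arrays) and 214680_at lower in both (5.0 and 4.72, against 5.03 and 5.01 in the non-silencing arrays). The probe sets of NTRK2 thus disagreed in direction. By centred profile over the 4 arrays, the nearest genes were CCDC86 (0.0255) and TMEM201 (0.0293). Summed neural marker signal was 227 and 516 in knockdown arrays 1 and 2, and 252 and 398 in non-silencing arrays 1 and 2. This sum ran opposite to NTRK2 between the numbers, but not evenly over the list. From number 1 to number 2, MAP2 rose by 2.62 among knockdown and 1.38 among non-silencing arrays, and SNAP25 by 1.08 and 0.63. The gaps of GFAP, SYP and NEFL ran from -0.15 to 0.36. The part of these markers in the NTRK2 values was not tested.

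DDR2, a receptor that binds fibrillar collagen, was above the median with all 4 probe sets in all 4 arrays. Its brightest, 225442_at, read 8.62 and 9.36 in the knockdown arrays, against 8.72 and 9.41 in the non-silencing arrays, and 227561_at read 8.18 and 8.88 in the knockdown arrays, against 8.39 and 8.85 in the non-silencing arrays. Here the arrays numbered 2 were the higher ones in both groups and the groups overlapped. The group differences were -0.075 (SE 0.34) and -0.087 (SE 0.28). Probe set 205168_at read 6.55 and 6.82 in the knockdown arrays, against 6.46 and 6.52 in the non-silencing arrays, a difference of 0.20 (SE 0.15) with the groups apart that was 0.064 without knockdown array 2. At 235631_at the difference was -0.036. Summed signal of 7 fibroblast markers was 791 and 1690 in knockdown arrays 1 and 2, and 1125 and 1922 in non-silencing arrays 1 and 2, higher in the arrays numbered 2 like the brightest DDR2 probe sets. COL1A1 and ACTA2, above the median in all 4 arrays, made up most of it. COL1A2, COL3A1, LUM and FAP were below the median in all 4 arrays and DCN above it in 1, and these 5 summed to 106 and 106 in the knockdown arrays and 111 and 106 in the non-silencing arrays. The part of COL1A1, ACTA2 or the list in the DDR2 values was not tested.

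EPHB1, an ephrin receptor of cell contacts and axon guidance, was below the median in every array with its 3 probe sets. The brightest, 210753_s_at, read 4.76 and 4.65 in the knockdown arrays, against 4.72 and 4.61 in the non-silencing arrays, with overlapping groups. Differences of the 3 probe sets ran from -0.16 to 0.044. MST1R, the receptor of macrophage-stimulating protein and the closest relative of MET, read 4.83 and 4.74 in the knockdown arrays, against 4.94 and 4.87 in the non-silencing arrays. Its groups were apart by a difference of -0.12 (SE 0.13) that lay wholly below the array medians, where RMA compresses differences.

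**Figure D2:**
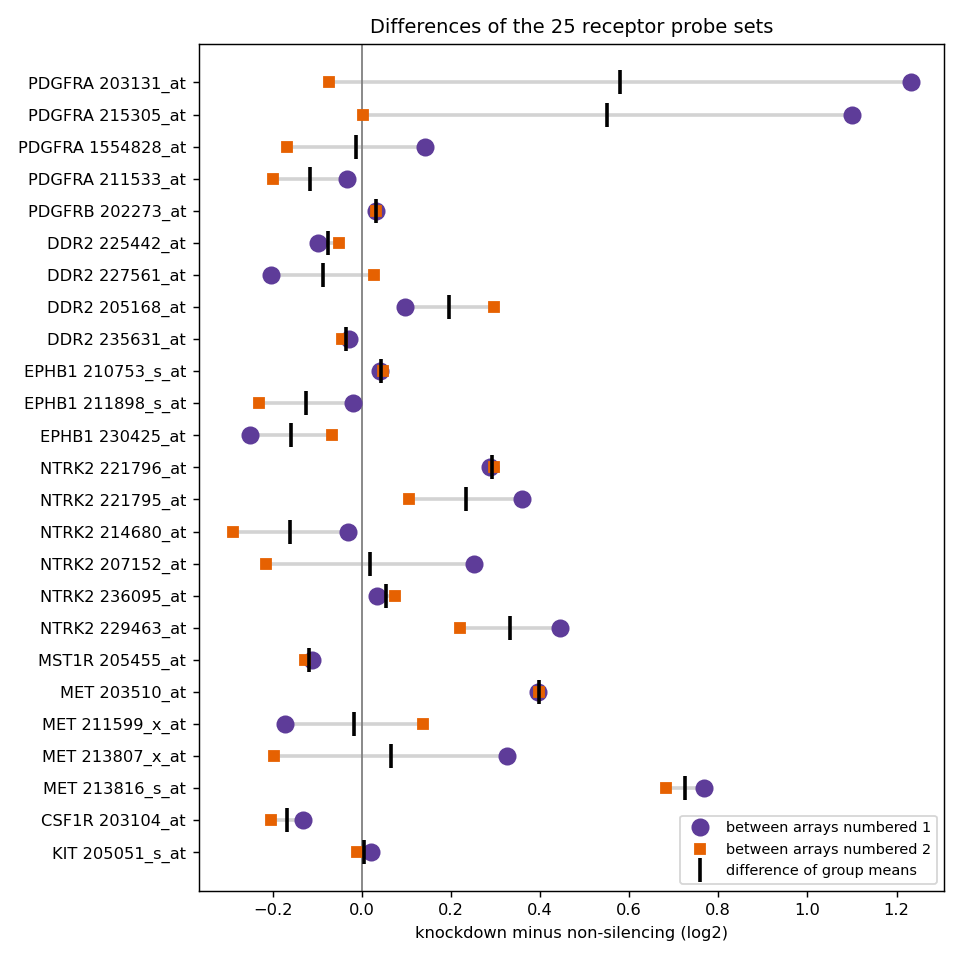
Knockdown minus non-silencing on the log2 scale for each of the 25 receptor probe sets, between the arrays numbered 1 (circles), between the arrays numbered 2 (squares) and between group means (black ticks). MET 203510_at has coinciding marks at 0.40, while the bright PDGFRA probe sets spread from near 0 to 1.23 and 1.10.

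For 15 of 25 receptor probe sets the mean gap between numbers was larger than the group difference, a share like that of all probe sets (60.4%). The sign of the difference was the same in both numbers for 18 of 25 probe sets, beside 56.1% of all probe sets. The bright probe sets of NTRK2 and DDR2 had the widest gaps between numbers, in opposite directions, and MET 203510_at and CSF1R had narrow ones.

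**Figure D3:**
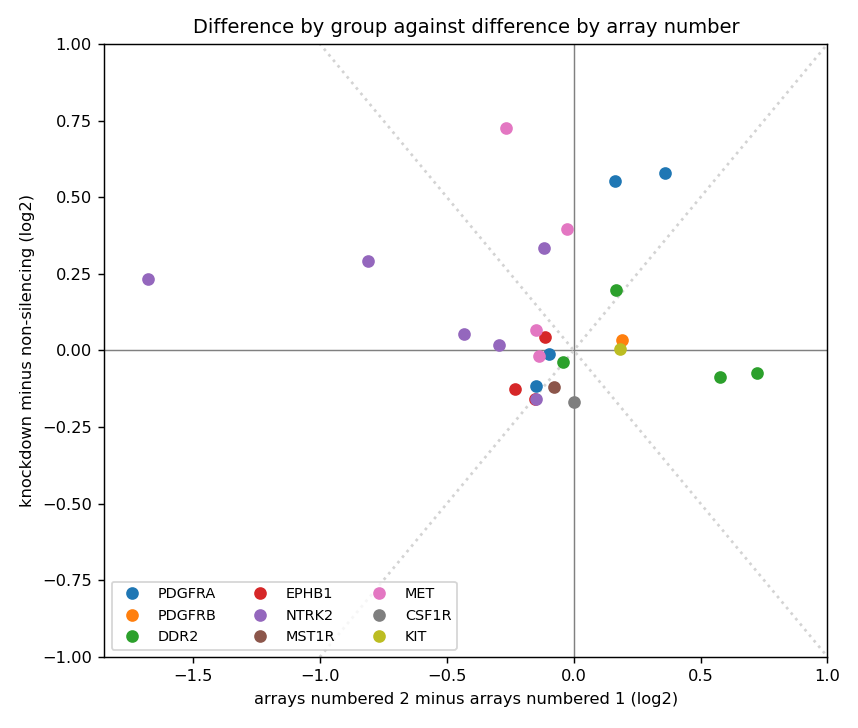
Group difference (knockdown minus non-silencing, log2, vertical) against the mean gap between array numbers (number 2 minus number 1, log2, horizontal) for the 25 receptor probe sets, coloured by gene, with dotted lines where both are equal in size and 1 NTRK2 point covering 1 of EPHB1 near the lower dotted line. The bright NTRK2 probe sets lie far left, those of DDR2 far right, and MET and CSF1R near the vertical axis.

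Ligand genes of the receptors were followed at the brightest probe set of each gene, in a limma fit over 19775 genes. Of 18 listed ligand genes 16 were measured and 12 lay above the median in both non-silencing arrays. None passed in either direction (0% of all genes). At an unadjusted limma p under 0.05 there were 2 ligand genes, against 2.57% of all genes. Groups were apart for 4 with higher and 3 with lower knockdown arrays, beside 12.4% and 15% of all genes, and 9 of 16 differences were above 0, beside 48.2% of all genes. The median difference was 0.055, against -0.0066 over all genes.

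BDNF, the ligand of NTRK2, had the largest difference among ligands whose groups were apart. It read 7.64 and 7.03 in the knockdown arrays, against 6.76 and 6.46 in the non-silencing arrays. Both knockdown arrays were higher, by a group difference of 0.73 (SE 0.24; limma adjusted p = 1.0) that was 0.88 and 0.57 within the numbers and from 0.42 to 1.03 with any single array left out. EFNB2, a membrane-bound ephrin that binds EPHB receptors, read 8.34 and 8.60 in the knockdown arrays, against 7.71 and 8.10 in the non-silencing arrays. Its groups were also apart, with a difference of 0.57 (SE 0.19) that was 0.64 and 0.50 within the numbers and from 0.37 to 0.77 with any single array left out. COL1A2, a collagen chain, differed by -0.33 and lay below the median.

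HGF, the ligand of MET, read 6.91 and 7.78 in the knockdown arrays, against 6.33 and 7.95 in the non-silencing arrays. It was higher in the arrays numbered 2, and its groups overlapped. CSF1, the ligand of CSF1R, read 7.39 and 7.19 in the knockdown arrays, against 7.09 and 7.05 in the non-silencing arrays, 0.22 apart (SE 0.14), or -0.029 when its probe sets were averaged. The second ligand, IL34, differed by -0.067. KITLG, the ligand of KIT, was below the median in all 4 arrays, like its receptor, and differed by 0.16. Among PDGF genes, PDGFA, PDGFB and PDGFD were above the median in all 4 arrays and PDGFC below it, with differences of 0.12, -0.12, 0.15 and -0.095. MST1, EFNB1 and EFNB3 were above the median in all 4 arrays and differed by -0.069, 0.0070 and -0.058, while the collagen genes COL1A1 and COL3A1 differed by -0.48 and 0.10.

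**Figure D4:**
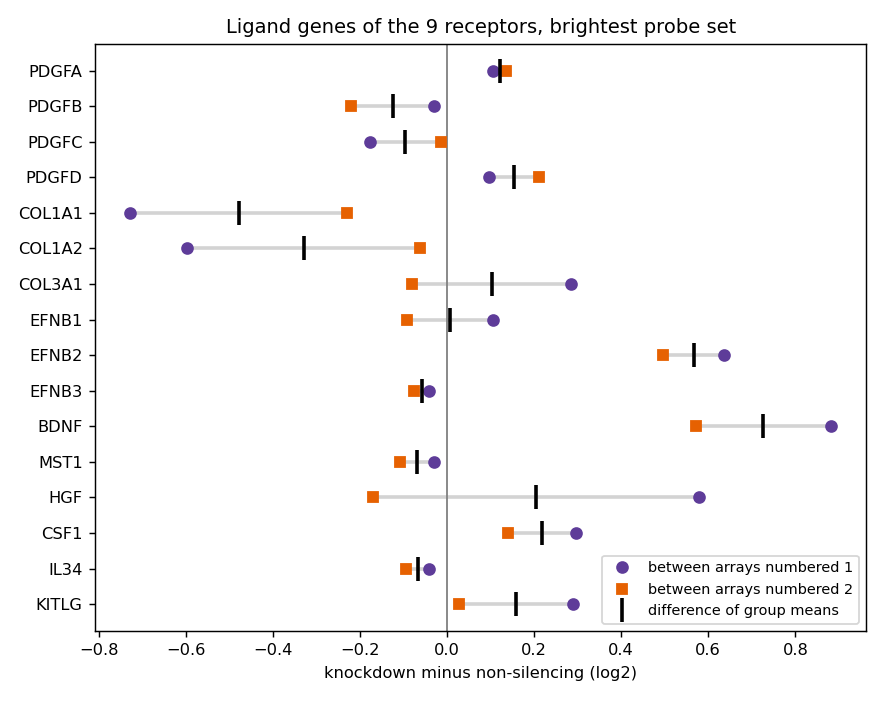
Knockdown minus non-silencing on the log2 scale for the 16 measured ligand genes at the brightest probe set, between arrays numbered 1 (circles), between arrays numbered 2 (squares) and between group means (black ticks). BDNF and EFNB2 lie to the right of 0 in both numbers, and HGF lies on opposite sides.

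The other human receptor tyrosine kinases served as the nearest set for comparison. This set is not free of receptors that PTPN1 acts on, since it holds EGFR. Of 49 listed, 46 were measured and 23 lay above the median in both non-silencing arrays. None passed (0 higher and 0 lower), 3 had an unadjusted limma p under 0.05 (2.57% of all genes), 9 were higher with groups apart (12.4% of all genes) and 11 lower (15% of all genes), and the median difference was 0.019. FGFR2, a fibroblast growth factor receptor, read 8.68 and 9.60 in the knockdown arrays, against 9.84 and 10.42 in the non-silencing arrays. Both knockdown arrays were lower, by -0.99 (SE 0.36), or -0.38 when its probe sets were averaged. EGFR, the epidermal growth factor receptor and a known PTPN1 substrate, read 6.06 and 6.90 in the knockdown arrays, against 5.29 and 5.70 in the non-silencing arrays. Its groups were apart by 0.99 (SE 0.32), or 0.28 when its probe sets were averaged. ROR2, a Wnt receptor, differed by 0.52 (SE 0.16) and lay below the median in both non-silencing arrays. Without 1 array FGFR2 ranged from -1.45 to -0.53 and EGFR from 0.57 to 1.41.

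Downstream of the receptors, adaptor and Ras pathway genes had a median difference of 0.057 over 23 measured of 32 listed, with 3 higher and 1 lower with groups apart (12.4% and 15% of all genes) and 0 called. The phosphatase PTPN11, which transmits receptor signals, differed by 0.23 (0.083 without knockdown array 2, and 0.57 at its most variable probe set), the kinase gene SRC by 0.15 (0.078 without knockdown array 1, and 0.0085 when its probe sets were averaged) and the phospholipase gene PLCG2 by -0.12. Other phosphatases that act on receptor kinases had a median of 0.023 over 10 measured of 11 listed, with 0 of them apart in either direction (12.4% higher and 15% lower of all genes) and 0 called. Early response and feedback genes of receptor signalling had a median of 0.28 over 17 genes, 12 of them above 0 (48.2% of all genes), with 6 higher and 0 lower with groups apart (12.4% and 15% of all genes) and 0 called. At an unadjusted limma p under 0.05 there were 0 adaptor genes, 0 phosphatases and 2 of 17 early response genes, against 2.57% of all genes. The early response median came to 0.25 within number 1, 0.13 within number 2 and 0.12 without knockdown array 1. In this list the inhibitor gene SPRY2 read 3.29 and 4.56 in the knockdown arrays, against 3.28 and 3.12 in the non-silencing arrays. All 4 SPRY2 values lay below the array medians. Its difference of 0.73 (SE 0.42) came from knockdown array 2 and was 0.088 without that array. IER3 differed by 0.51, from 0.14 without knockdown array 1 to 0.89, and the transcription factor gene EGR1 by 0.34 (SE 0.12), or 0.14 when its probe sets were averaged. EGR1 lay below the median in both non-silencing arrays. Summed signal of the 10 Hodgkin cell markers was 14529 to 15938 in the knockdown arrays and 12961 to 14002 in the non-silencing arrays. CD83, BATF3 and IRF4 made up most of this sum, and the groups of each overlapped. Of the 10 differences 9 were above 0, beside 48.2% of all genes. Groups were apart for 2 higher markers and 1 lower (12.4% and 15% of all genes), the lower one being CCL22, by -0.14. The part of this list in the differences above was not tested.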

How the data were processed

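Total RNA of KM-H2 cells was measured on 4 arrays after 2 cycles of cRNA amplification, per the labels' protocols. The deposited table holds log2 values. Per the submitters' processing notes the authors used RMA, with a software version that is not given in the sources used here. That method equalises array distributions and compresses differences among dim probe sets. Groups and array numbers came from the sample titles. The values were used as deposited.

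Of 54675 probe sets, 41097 had 1 gene symbol, 1801 several and 11777 none in the platform annotation, and only the first kind was named. Entrez identifiers were looked up in RefSeq genes of GRCh38.p14, where 54 were not found. Receptor probe sets were tested in limma 3.58.1 under R 4.3.3 (lmFit and eBayes, two-sided, no covariate, Benjamini-Hochberg over all probe sets, threshold 0.05). Lists were described in the same fit over 19775 genes, each gene represented by the probe set of highest mean. The fit was also run on simulated arrays with independent noise and no gap between array numbers. That run does not show which differences could be found in these arrays. A probe set has its groups apart where both arrays of one group lie above both of the other.

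The receptors and lists were chosen with earlier results of these data known. Named genes were every receptor, PTPN1, the 3 largest differences with groups apart in each list, and the 2 genes nearest in profile to receptors ranging over more than 1 log2 unit. All ligand genes, KDR and cell type markers were also given. A planned description of receptor protein sequences was not made. Alternatives were other normalizations, filters, variance models, probe set choices, a replicate block and leaving out each array.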

Additional observations from a re-analysis of the deposited data

How the results depend on the processing

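Calls over all probe sets and genes changed with some settings: 164 probe sets and 72 genes were called with the replicate block, 1 gene with an intensity trend, and 0 to 1 probe sets and 0 to 1 genes without 1 array, 1 probe set and 1 gene without non-silencing array 1 and 1 gene without non-silencing array 2. No receptor was called under any setting. Under the replicate block the lowest adjusted limma p of a receptor was 0.075 (MET 213816_s_at), and PTPN1 passed (difference -1.10, adjusted p = 0.0251). The labels tie an array number to no shared batch. Above the upper quartile in both controls lay 5 receptor probe sets and above the lower quartile 22. Without 1 array the groups were apart for 7 to 13 (higher) and 6 to 10 (lower), as fewer arrays can overlap less. The share over all probe sets was not taken for these settings, so nothing is read from these counts.

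Of 25 receptor differences 12 kept their sign in every alternative run for them, 10 or, for the 13 probe sets too dim for the signal filter, 9. Only 2 of the settings with all 4 arrays can change a difference. PDGFRA 1554828_at turned to 0.0047 with centred arrays. Without 1 array the ranges of those that turned were -0.14 to 0.11 (PDGFRA 1554828_at), -0.064 to 0.13 (PDGFRB 202273_at), -0.45 to 0.30 (DDR2 225442_at), -0.43 to 0.26 (DDR2 227561_at), -0.014 to 0.10 (EPHB1 210753_s_at), -0.29 to 0.043 (EPHB1 211898_s_at), -0.12 to 0.70 (NTRK2 221796_at), -0.67 to 1.13 (NTRK2 221795_at), -0.25 to 0.28 (NTRK2 207152_at), -0.17 to 0.28 (NTRK2 236095_at), -0.16 to 0.13 (MET 211599_x_at), -0.14 to 0.27 (MET 213807_x_at) and -0.094 to 0.10 (KIT 205051_s_at). For other genes they were -1.05 to 0.098 (COL1A1), -0.051 to 0.26 (COL3A1), -0.064 to 0.078 (EFNB1), -0.19 to 0.077 (EFNB3), -0.61 to 1.02 (HGF), -0.10 to 0.24 (KDR), -0.17 to 0.028 (MST1), -0.10 to 0.35 (PDGFA), -0.22 to 0.031 (PDGFC) and -0.056 to 0.37 (PDGFD).

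With the mean of all probe sets CSF1 was -0.029 and PDGFB 0.067, and with the probe set of largest variance COL3A1 was -0.15, CSF1 -0.19, KITLG -0.22, PDGFB 0.22, PLCG2 0.070 and SRC -0.036. EFNB1 was -0.0024 with centred arrays.

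Beside ranges given earlier, further ranges without 1 array kept their sign but moved by over 1.5 times. For receptors they were 0.072 to 1.09 (PDGFRA 203131_at), 0.20 to 0.91 (PDGFRA 215305_at), -0.23 to -0.0003 (PDGFRA 211533_at), 0.064 to 0.33 (DDR2 205168_at), -0.062 to -0.011 (DDR2 235631_at), -0.28 to -0.036 (EPHB1 230425_at), 0.22 to 0.45 (NTRK2 229463_at), -0.30 to -0.022 (NTRK2 214680_at) and -0.16 to -0.077 (MST1R). For ligand genes they were -0.48 to -0.18 (COL1A2), -0.18 to -0.072 (PDGFB), -0.098 to -0.036 (IL34), 0.12 to 0.32 (CSF1) and 0.051 to 0.27 (KITLG).

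List medians without 1 array were -0.025 to 0.053 (ligands), -0.051 to 0.040 (other receptor kinases), 0.011 to 0.083 (adaptors), -0.063 to 0.15 (phosphatases) and 0.12 to 0.30 (early response). The ligands had 0.15 at or above the median signal, 0.0093 with the mean of probe sets and -0.063 with the largest variance. Other receptor kinases had 0.034 at or above the median signal, -0.0022 with the mean of probe sets and -0.0075 with the largest variance. With these probe set choices the phosphatases had 0.035 and 0.11, and with the mean the early response list had 0.14. The cause of these changes was not tested.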
